A study of Homo sapiens with 6 samples.

Results

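The genes described here encode the subunits of the proteasome and the factors that assemble, activate or inhibit it. They were taken from the deposited gene table by symbol: PSMA, PSMB, PSMC, PSMD, PSME, PSMF or PSMG followed only by digits, plus POMP, ADRM1 and PAAF1, apart from 2 immunoproteasome symbols that the rule leaves out and that were not analysed here. This gave 49 of the 17269 genes in the table. The cells were HCT116, an established human colorectal cancer line, kept in RPMI1640 with fetal bovine serum. The 2 groups were shPRSS22, in which a short hairpin RNA targets PRSS22, the gene of a secreted trypsin-like serine protease, and shCtrl, whose genotype label is WT and which the design text calls wild type. Each group had 3 libraries of poly(A)-selected RNA. The sources used here do not give the hairpin's sequence, how long the cells carried it or whether they were 1 clone, nor do they state that the libraries came from separate cultures. The p-values below therefore measure only the spread between these libraries, which may be technical.

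The proteasome is the main protease of the cytosol and nucleus, and it breaks down proteins tagged with ubiquitin chains. Its 20S core is a barrel of stacked rings: alpha subunits form the gated outer rings, and beta subunits, some of which carry the proteolytic sites, form the inner rings. The 19S particle caps the barrel, with a base that holds a ring of ATPases to unfold and thread substrates, and a lid that removes the ubiquitin chain. Dedicated chaperones build the core and the base, and other activators can open the core in place of 19S. Colorectal cancer lines, like all dividing human cells, depend on it.

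The libraries held 15332449 to 15466647 estimated counts in shPRSS22 and 14920523 to 15164328 in shCtrl. PRSS22 itself stood at 3.09, 3.16 and 2.61 CPM in shPRSS22 libraries 1 to 3, against 10.1, 9.38 and 10.1 CPM in shCtrl libraries 1 to 3. CPM is the count per 1000000 counts of a library, after TMM scaling. The groups did not overlap, and the log2 fold change of shPRSS22 over shCtrl was -1.74, with a standard error (SE) of 0.135 and an adjusted p of 4.78e-12 in edgeR's quasi-likelihood test. The epithelial markers EPCAM, CDH1, KRT8, KRT18 and KRT19 had 4337 to 22555 counts in every library, whereas VIL1 had 23, 10 and 0 counts in shPRSS22 libraries and 0, 7 and 6 in shCtrl libraries. The endothelial marker CDH5 had 0 counts in all 6 libraries, the leukocyte marker PTPRC had at most 1, and the fibroblast markers COL1A2 and DCN had at most 2 and 1. COL1A1 had 434 to 520 counts in shPRSS22 libraries and 366 to 473 in shCtrl libraries, and VWF had 20 to 24 in shPRSS22 and 9 to 22 in shCtrl.

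Proteasome transcripts changed by small amounts in shPRSS22, and more of them were higher than lower. Of the 49 genes, 47 were tested, and 18 rose, 6 fell and 23 did not pass the threshold, an adjusted p of 0.05 over all 13104 genes tested. Among all tested genes 19.9% rose and 19.3% fell, and among the 47 proteasome genes the shares were 38.3% and 12.8%. The median log2 fold change was 0.06 over the 47 genes, or 4.07%, against -0.006 over all tested genes. It was above 0 in 35 of the 47 genes and in 6402 of the 13104 tested genes. The counts by role below stand beside these figures for all tested genes. In 22 of the 47 genes every shPRSS22 library stood above every shCtrl library and in 7 every shPRSS22 library stood below, where the shares over all tested genes were 24.2% and 24.3%. Of the 47 genes, 44 differed by less than 20% between groups by their fitted fold change. These values come from bulk RNA, in which fewer cells of a type and less RNA per cell cannot be told apart, and they are shares of each library's mRNA rather than amounts per cell.

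The 5 largest rises were those of PSME4, PSMD12, PSMD5, PSMD14 and PSMA4, and the 4 largest falls those of PAAF1, PSMB10, PSME1 and PSMD3. Of the 24 genes that passed, 14 passed under each of 14 other settings of the analysis. The same share over all genes was not worked out, so it cannot be said whether these calls are more or less stable than others. The 11 that rose under all of them were PSMA2, PSMA4, PSMB7, PSMC5, PSMD2, PSMD5, PSMD7, PSMD12, PSMD14, POMP and PSME4, and the 3 that fell under all of them were PAAF1, PSMD3 and PSME1. In the authors' deposited table, 11 proteasome genes were higher and 3 lower at a q-value below 0.05, and they were these same 11 and 3. Over all genes with a p-value in that table, 9.69% were higher and 8.89% lower by the same rule. DESeq2 on the same counts called 13 proteasome genes higher and 3 lower, beside 14.7% and 13.4% of all genes.

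**Figure D1:**
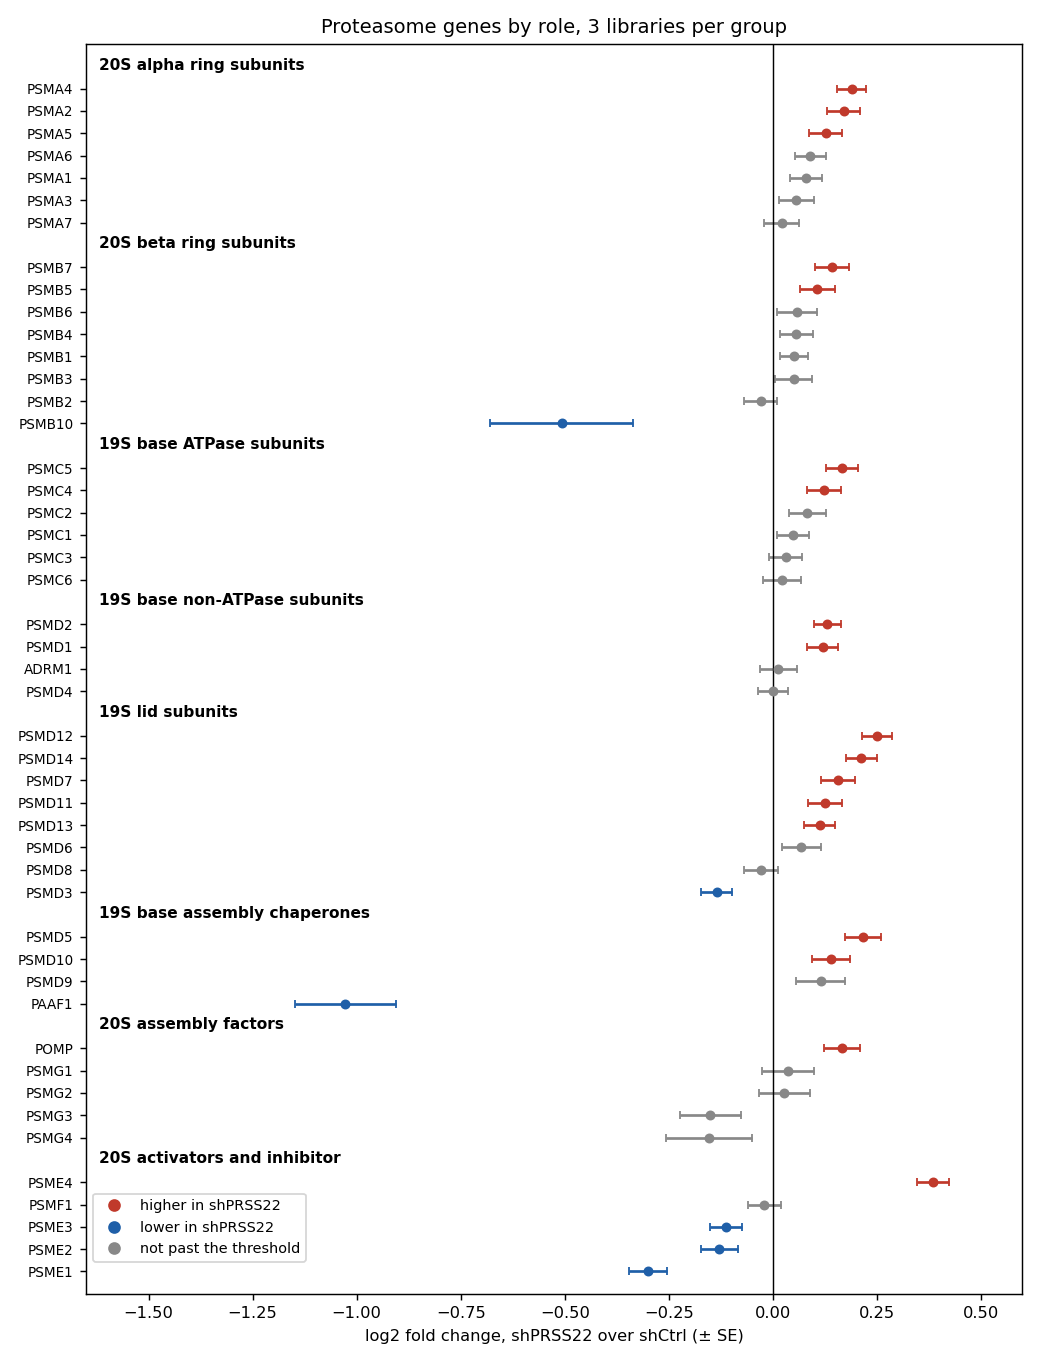
Log2 fold change of shPRSS22 over shCtrl, with its standard error, for each of the 47 tested proteasome genes, grouped by role and coloured by whether the gene was higher, lower or not past the threshold. Most points sit between 0 and 0.25, while PAAF1 at -1.03, PSMB10 at -0.51 and PSME1 at -0.30 lie to the left and PSME4 at 0.39 lies farthest to the right.

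The promoters of the proteasome genes were searched for a pair of motifs, because proteasome genes are known targets of NFE2L1 and NFE2L2, which bind the antioxidant response element, and because immunoproteasome and activator genes are known targets of interferon regulatory factors. The core letters TGACNNNGC stood for the first and GAAANNGAA for the second, on both strands, in the 250 bases before each start in the RefSeq table for GRCh38.p14. Promoters were found for 43 of the 49 genes. The first motif was present in 13 of these 43 genes (30.2%), in 15.9% of the tested genes with a promoter and in 10.9% of all 35116 windows of the table. By outcome, it was found in 5 of 17 genes that rose, 3 of 6 that fell and 5 of 18 that did not pass. The motif is thus present in genes of every outcome, and a match describes letters only. In the stretches below, read 5′ to 3′ on the strand of the gene, capitals mark the match, which in PSME4 and PSMC5 lies on the opposite strand.
PSME4, chr2:53970994-53971057, minus strand: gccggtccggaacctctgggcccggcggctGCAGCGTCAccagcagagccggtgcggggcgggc
PSMD12, chr17:67366704-67366772, minus strand: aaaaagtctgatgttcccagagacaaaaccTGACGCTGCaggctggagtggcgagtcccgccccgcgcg
PSMD5, chr9:120843018-120843086, minus strand: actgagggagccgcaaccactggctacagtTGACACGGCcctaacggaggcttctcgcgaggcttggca
PSMA4, chr15:78540650-78540678, plus strand: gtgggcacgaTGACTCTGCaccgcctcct
PSMC5, chr17:63827654-63827682, plus strand: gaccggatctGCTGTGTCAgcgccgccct
PSME1, chr14:24136078-24136146, plus strand: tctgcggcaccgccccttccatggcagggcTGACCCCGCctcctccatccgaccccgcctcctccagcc
PSMD3, chr17:39980760-39980788, plus strand: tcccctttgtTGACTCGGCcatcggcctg

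The first 5 of these genes rose in shPRSS22, and PSME1 and PSMD3 fell, as did PSME2, which holds a further match. The other matches were in ADRM1, PSMB3, PSMD9, PSMG1 and PSMG2, which did not pass. The second motif was found in 6 of the 43 genes (14.0%), in 7.52% of the tested genes with a promoter and in 6.88% of all windows. It was present in 2 of 17 genes that rose, 2 of 6 that fell and 2 of 18 that did not pass. All 6 are shown. POMP and PSMA4 rose, PSMB10 and PSME2 fell, and PSMB4 and PSMG4 did not pass. PSMB10, PSME2 and PSMG4 share the letters GAAAGCGAA. The 2 motifs overlapped in 0 promoters of these genes.
POMP, chr13:28659105-28659129, plus strand: ccagccctcgGAAACGGAAgtgagc
PSMA4, chr15:78540155-78540203, plus strand: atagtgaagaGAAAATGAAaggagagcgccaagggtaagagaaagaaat
PSMB10, chr16:67936853-67936881, minus strand: gggtaaaggcGAAAGCGAAagcaggaagt
PSME2, chr14:24146620-24146648, minus strand: cctggggagtGAAAGCGAAagcccgggcg
PSMB4, chr1:151399495-151399523, plus strand: tcgtctacagGAAAAAGAAagaaatgaca
PSMG4, chr6:3258904-3258932, plus strand: ttccggggccGAAAGCGAAagcgcgctcg

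The alpha ring forms the gate of the 20S core and the docking face for its activators. All 7 tested alpha genes had a log2 fold change above 0, with a median of 0.09, and 3 of them passed: PSMA4, PSMA2 and PSMA5 rose. Over all tested genes, 6402 of 13104 were above 0 and 19.9% rose. PSMA4 stood at 149, 151 and 151 CPM in shPRSS22 libraries 1 to 3, against 129, 133 and 134 CPM in shCtrl libraries 1 to 3. The groups lay clearly apart, and the log2 fold change was 0.19 (SE 0.035; adjusted p = 6.94e-05), or 14.0%. PSMA2 averaged 99.1 ± 2.40 CPM in shPRSS22 and 88.1 ± 1.44 CPM in shCtrl (SD, n = 3 each), a log2 fold change of 0.17 (edgeR, adjusted p = 9.70e-04). PSMA5 averaged 118 ± 5.32 CPM in shPRSS22 and 108 ± 1.16 CPM in shCtrl, and its adjusted p of 0.0101 became 0.0547 without shPRSS22 replicate 2. At the other end of the ring, PSMA7 stood at 96.9, 107 and 107 CPM in shPRSS22 libraries, against 101, 102 and 104 CPM in shCtrl libraries. These values overlap, and the 95% interval of its log2 fold change, from -0.06 to 0.10, spans 0.

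The remaining alpha genes, PSMA1, PSMA3 and PSMA6, had log2 fold changes of 0.08, 0.06 and 0.09 and did not pass. PSMA1 and PSMA6 had groups that did not overlap, with adjusted p-values of 0.0977 and 0.0564 in edgeR. PSMA6 passed without shPRSS22 replicate 1 (adjusted p = 0.0280) and PSMA1 without shPRSS22 replicate 3 (0.0300). PSMA8, the form of this ring used in the testis, had 0 counts in all 6 libraries and was not tested.

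Of the 8 tested beta ring genes, 2 rose, 1 fell and 5 did not pass, with a median log2 fold change of 0.05. The shares of 25.0% higher and 12.5% lower stand beside 19.9% and 19.3% of all tested genes. PSMB7, which carries the trypsin-like site, stood at 108, 117 and 114 CPM in shPRSS22 libraries 1 to 3, against 98.4, 104 and 104 CPM in shCtrl libraries 1 to 3. Every shPRSS22 library was above every shCtrl library, by margins of a few CPM at the closest, and the log2 fold change was 0.14 (SE 0.040; edgeR, adjusted p = 0.00517). PSMB5, which carries the chymotrypsin-like site that proteasome inhibitor drugs block, averaged 92.1 ± 1.99 CPM in shPRSS22 and 85.5 ± 2.49 CPM in shCtrl. Its log2 fold change of 0.11 had an adjusted p of 0.0373, which became 0.0865, 0.0704, 0.174 and 0.0609 without shPRSS22 replicate 2, shPRSS22 replicate 3, shCtrl replicate 1 and shCtrl replicate 3, and 0.116 with DESeq2. PSMB6, which carries the caspase-like site, had a log2 fold change of 0.06 (SE 0.047; adjusted p = 0.353) and did not pass.

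PSMB10 encodes the subunit that takes the place of PSMB7 in immunoproteasomes, the form abundant in immune cells and induced by interferon gamma. It was one of the least abundant proteasome genes, at 3.48, 2.96 and 2.74 CPM in shPRSS22 libraries 1 to 3, against 5.01, 4.29 and 3.77 CPM in shCtrl libraries 1 to 3. Those levels rest on 54, 45 and 42 counts in shPRSS22 libraries and 75, 65 and 57 counts in shCtrl libraries. The groups did not overlap, but shPRSS22 library 1 and shCtrl library 3 were close. The log2 fold change was -0.51 (SE 0.171; adjusted p = 0.0183), and the mean level fell by 29.6%. PSMB10 no longer passed without shPRSS22 replicate 2 (adjusted p = 0.0554), shPRSS22 replicate 3 (0.0712) or shCtrl replicate 1 (0.122), and with DESeq2 (0.0954).

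The noncatalytic beta genes PSMB1, PSMB3 and PSMB4 had log2 fold changes of 0.05, 0.05 and 0.06, and PSMB2 one of -0.03. None of these 4 passed, and their adjusted p-values ran from 0.234 for PSMB1 to 0.601 for PSMB2. PSMB11, the thymus form, had 1 count in shPRSS22 library 2 and 0 in the other libraries and was not tested.

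The 6 ATPases of the 19S base form the ring that unfolds substrates. All 6 had a log2 fold change above 0, with a median of 0.07, and PSMC5 and PSMC4 rose. That is 33.3% rising, beside 19.9% of all tested genes, of which 6402 of 13104 were above 0. PSMC5 stood at 105, 109 and 107 CPM in shPRSS22 libraries 1 to 3, against 94.8, 95.02 and 96.5 CPM in shCtrl libraries 1 to 3. The shCtrl values were within 2 CPM of each other and all below the lowest shPRSS22 value, and the log2 fold change was 0.17 (SE 0.039; adjusted p = 8.50e-04). PSMC4 averaged 90.7 ± 1.61 CPM in shPRSS22 and 83.3 ± 2.40 CPM in shCtrl, with an adjusted p of 0.0179 that became 0.0526 without shPRSS22 replicate 3, 0.101 without shCtrl replicate 1 and 0.0683 with DESeq2. PSMC6 stood at 65.2, 66.3 and 64.8 CPM in shPRSS22 libraries, against 62.8, 63.7 and 66.7 CPM in shCtrl libraries, which overlap (log2 fold change 0.02, adjusted p = 0.726). PSMC1, PSMC2 and PSMC3 had log2 fold changes of 0.05, 0.08 and 0.03 and did not pass, although PSMC2 did without shPRSS22 replicate 3 (adjusted p = 0.0202). PSMC1 and PSMC2 carry decimals in their counts, so reads shared with other sequences were divided among them, and the annotation names 13 pseudogenes of PSMC1.

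The other base subunits are the scaffolds PSMD1 and PSMD2, to which shuttle factors dock, and the ubiquitin receptors PSMD4 and ADRM1. Both scaffolds rose and neither receptor passed. PSMD2 stood at 259, 271 and 274 CPM in shPRSS22 libraries 1 to 3, against 248, 242 and 245 CPM in shCtrl libraries 1 to 3. All shPRSS22 libraries were above all shCtrl libraries, with a log2 fold change of 0.13 (SE 0.033; adjusted p = 0.00214). PSMD1 averaged 132 ± 1.32 CPM in shPRSS22 and 121 ± 3.71 CPM in shCtrl, a log2 fold change of 0.12 whose adjusted p of 0.0101 became 0.0846 without shCtrl replicate 1. PSMD4 stood at 142, 143 and 145 CPM in shPRSS22 libraries, against 143, 140 and 147 CPM in shCtrl libraries. Its group means were nearly equal and its 95% interval on the log2 scale ran from -0.07 to 0.07, while that of ADRM1 ran from -0.08 to 0.10.

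By edgeR the lid held the largest share of rising genes among the 8 roles, 5 of 8, with 1 falling. Its median log2 fold change was 0.12. Over all tested genes 19.9% rose and 19.3% fell. With DESeq2, PSMD11 and PSMD13 did not pass, and the nonATPase base subunits then held a larger share than the lid. PSMD12, a scaffold of the lid, stood at 207, 212 and 222 CPM in shPRSS22 libraries 1 to 3, against 174, 179 and 186 CPM in shCtrl libraries 1 to 3. The gap between the groups was wider than the range within either, and the log2 fold change was 0.25 (SE 0.036; edgeR, adjusted p = 1.28e-06), or 18.9%. PSMD14, the metalloprotease that cuts the ubiquitin chain from the substrate, stood at 141, 147 and 149 CPM in shPRSS22 libraries, against 129, 120 and 129 CPM in shCtrl libraries. It rose by 0.21 on the log2 scale (SE 0.038; adjusted p = 3.58e-05), or 15.9%, with no overlap between groups. PSMD7, its catalytically inactive partner in the lid, averaged 103 ± 4.03 CPM in shPRSS22 and 92.2 ± 0.879 CPM in shCtrl and also rose, by 0.16 (adjusted p = 0.00242).

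PSMD11 and PSMD13, both structural lid subunits, rose by 0.13 and 0.11 with adjusted p-values of 0.0145 and 0.0176. PSMD11 did not pass without shCtrl replicate 2 (adjusted p = 0.125), with DESeq2 (0.0552) or on TPM values in limma (0.0586). PSMD13 did not pass without shPRSS22 replicate 2 (0.0727), without shCtrl replicate 2 (0.0711) or with DESeq2 (0.0611). PSMD6 and PSMD8 had log2 fold changes of 0.07 and -0.03 and did not pass. PSMD3 was the exception in the lid. It stood at 114, 113 and 117 CPM in shPRSS22 libraries 1 to 3, against 127, 124 and 127 CPM in shCtrl libraries 1 to 3. All shPRSS22 libraries were below all shCtrl libraries, and PSMD3 fell by 0.13 on the log2 scale (SE 0.037; adjusted p = 0.00396), a fold change of 0.911.

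The base is built with the help of 4 chaperones that bind its ATPases and leave before the 19S particle is complete. Among them were both a clear rise and the largest fall of all proteasome genes. PSMD5 stood at 84.8, 82.2 and 86.2 CPM in shPRSS22 libraries 1 to 3, against 69.4, 72.8 and 75.6 CPM in shCtrl libraries 1 to 3. No library of one group fell within the range of the other, and the log2 fold change was 0.22 (SE 0.044; adjusted p = 1.81e-04), or 16.2%. PAAF1, the human counterpart of the yeast chaperone Rpn14, stood at 5.92, 6.38 and 4.38 CPM in shPRSS22 libraries, against 11.1, 11.8 and 11.2 CPM in shCtrl libraries. Its highest shPRSS22 value was below its lowest shCtrl value by several CPM, and it fell by 1.03 on the log2 scale (SE 0.122; adjusted p = 3.85e-08), a fold change of 0.491. It was the only tested proteasome gene to differ by 2-fold or more, and its counts were 92, 97 and 67 in shPRSS22 libraries and 166, 178 and 169 in shCtrl libraries.

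PAAF1 lies on chromosome 11 of GRCh38, from 73876699 to 73931124 on the plus strand, and overlaps COA4 on the opposite strand. The protocol describes no strand marking, so reads of overlapping genes cannot be told apart by strand. COA4 averaged 33.0 CPM in shPRSS22 and 34.9 CPM in shCtrl, with a log2 fold change of -0.08 (adjusted p = 0.373), and it passed as lower without shPRSS22 replicate 2 (-0.17, adjusted p = 0.0467). Over the 14 other settings the log2 fold change of PAAF1 ran from -1.13 to -0.82. PSMD10, known as gankyrin, rose by 0.14 (adjusted p = 0.0127), a call lost without shCtrl replicate 1 (0.0655) and with DESeq2 (0.0584). PSMD9 had groups that did not overlap but did not pass (log2 fold change 0.11, adjusted p = 0.119).

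The 20S core is assembled by the PSMG chaperones, which build the alpha ring, and by POMP, which recruits the beta subunits and is degraded by the finished core. POMP rose and none of the 4 PSMG genes passed. POMP stood at 103, 97.9 and 104 CPM in shPRSS22 libraries 1 to 3, against 84.5, 92.8 and 93.8 CPM in shCtrl libraries 1 to 3. The groups did not overlap, although shPRSS22 library 2 and shCtrl library 3 were close, and the log2 fold change was 0.17 (SE 0.043; adjusted p = 0.00257). PSMG1 and PSMG2, which act as a pair, had log2 fold changes of 0.04 and 0.03. PSMG3 and PSMG4, the other pair, had log2 fold changes of -0.15 each, with adjusted p-values of 0.104 and 0.249. PSMG3 passed as lower without shPRSS22 replicate 2 (-0.21, adjusted p = 0.0410). PSMG4 stood at 9.91, 10.3 and 8.49 CPM in shPRSS22 libraries, against 10.3, 10.4 and 11.2 CPM in shCtrl libraries. All 3 shPRSS22 values of PSMG4 were below the shCtrl values, but by so little for libraries 1 and 2 that its 95% interval, from -0.36 to 0.05, spans 0. The counts of PSMG4 carry decimals, so reads shared with other sequences were divided among them.

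By edgeR the 20S activators and the inhibitor were the role in which falls outnumbered rises. Of the 5 genes, 1 rose, 3 fell and 1 did not pass, where 19.9% of all tested genes rose and 19.3% fell. With DESeq2 and in the authors' deposited table, PSME4 alone rose and PSME1 alone fell, so falls did not outnumber rises there. PSME4, a large nuclear activator, had the largest rise of all proteasome genes. It stood at 152, 145 and 156 CPM in shPRSS22 libraries 1 to 3, against 121, 114 and 112 CPM in shCtrl libraries 1 to 3. The lowest shPRSS22 value was well above the highest shCtrl value, and the log2 fold change was 0.39 (SE 0.039; edgeR, adjusted p = 1.70e-09), or 30.6%. PSME4 lies on chromosome 2 of GRCh38, from 53864067 to 53970840 on the minus strand, and overlaps ACYP2 on the other strand, which averaged 10.3 CPM in shPRSS22 and 8.99 CPM in shCtrl and did not pass (adjusted p = 0.147).

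PSME1 and PSME2 encode the paired chains of the interferon-inducible activator ring of the cytoplasm. PSME1 stood at 73.9, 85.4 and 81.9 CPM in shPRSS22 libraries 1 to 3, against 98.3, 101 and 97.9 CPM in shCtrl libraries 1 to 3. The shCtrl values were close together and the shPRSS22 values more scattered but all lower, and PSME1 fell by 0.30 on the log2 scale (SE 0.045; adjusted p = 2.95e-06), a fold change of 0.813. PSME2 averaged 70.1 ± 3.75 CPM in shPRSS22 and 76.6 ± 0.82 CPM in shCtrl and fell by 0.13 (adjusted p = 0.0234). This smaller fall was lost without shPRSS22 replicate 3 (-0.08, adjusted p = 0.162), shCtrl replicate 1 (0.0656) or shCtrl replicate 3 (0.0724), and with DESeq2 (0.0979). PSME2 overlaps RNF31 on the opposite strand, which had a log2 fold change of -0.12 (adjusted p = 0.0468). RNF31 did not pass in 9 of the 14 other settings, with adjusted p-values there of 0.0505 to 0.232.

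PSME3, the nuclear relative of PSME1 and PSME2, averaged 124 ± 4.90 CPM in shPRSS22 and 134 ± 4.61 CPM in shCtrl and fell by 0.11 (adjusted p = 0.0209). It did not pass without shPRSS22 replicate 1 (0.137) or shCtrl replicate 1 (0.147), with DESeq2 (0.0776) or on TPM values in limma (0.0807). Its antisense neighbour BECN1 moved the other way, with a log2 fold change of 0.20 (adjusted p = 7.05e-04). PSMF1, an inhibitor of the core in the test tube, was at 92.4 ± 1.46 CPM in shPRSS22 and 93.7 ± 2.27 CPM in shCtrl and did not pass (log2 fold change -0.02, adjusted p = 0.725). The ratio of PSME4 to PSME1, taken on TPM and so per transcript length, was 0.193, 0.160 and 0.180 in shPRSS22 libraries 1 to 3, against 0.114, 0.107 and 0.108 in shCtrl libraries 1 to 3. This pair was chosen after their directions were seen, so the ratio only restates the rise of PSME4 and the fall of PSME1 on 1 scale.

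**Figure D2:**
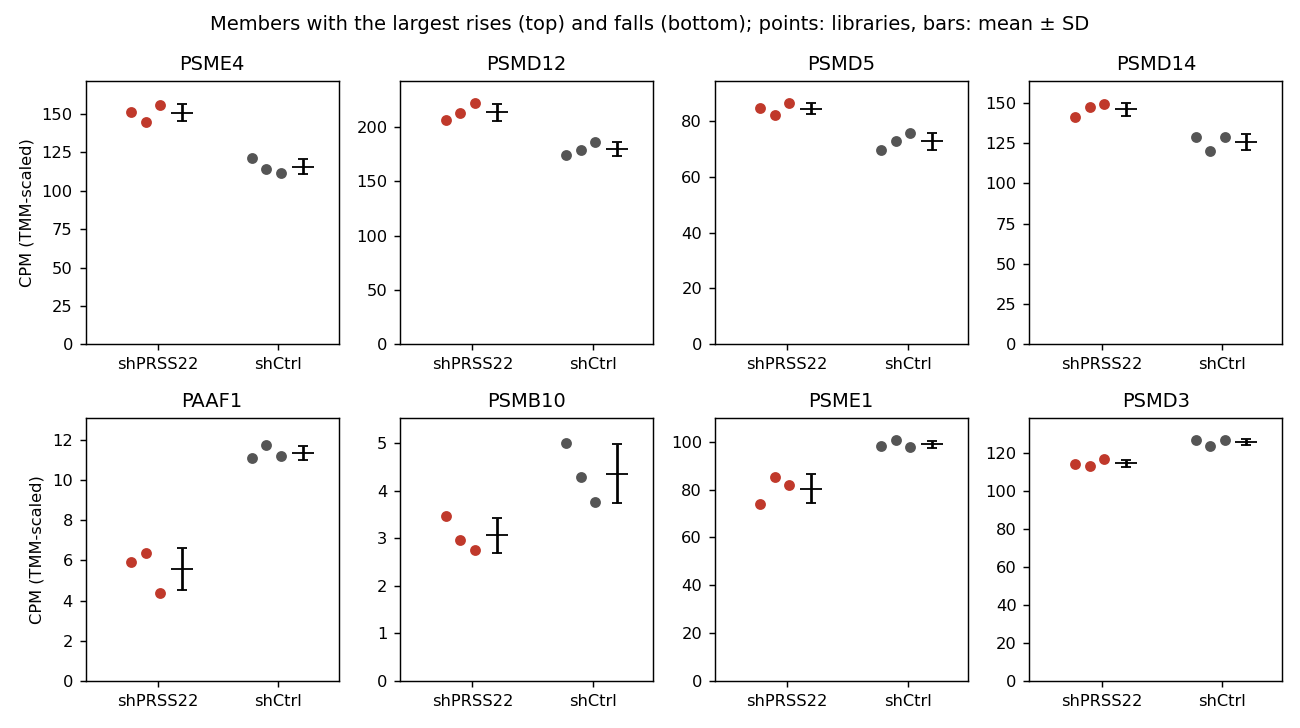
CPM of the 4 genes with the largest rises (PSME4, PSMD12, PSMD5 and PSMD14, top) and the 4 with the largest falls (PAAF1, PSMB10, PSME1 and PSMD3, bottom), with shPRSS22 left of shCtrl; points are libraries and bars are mean ± SD. In each panel the 3 shPRSS22 libraries lie wholly above or wholly below the 3 shCtrl libraries, with the widest relative gap for PAAF1.

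Levels were compared between genes on the deposited TPM, which corrects for transcript length. PSMB1 was the most abundant, at 488 ± 11.7 TPM in shPRSS22 and 469 ± 6.50 TPM in shCtrl, followed by PSMB3, PSMB4 and PSMA1. PSMB3 averaged 321 ± 13.7 TPM in shPRSS22 and 310 ± 7.23 TPM in shCtrl, and PSMB4 averaged 316 ± 9.28 TPM in shPRSS22 and 303 ± 4.36 TPM in shCtrl. The SDs of PSMB3 and PSMB4 overlap, so the order of these neighbours is not resolved, whereas PSMB1 stands clear of both. The 32 tested subunits of the constitutive 20S and 19S particles, which enter the particles in fixed numbers, ranged from 39.7 TPM for PSMB2 to 479 TPM for PSMB1 over all 6 libraries, a 12.1-fold range with a median of 146 TPM. The SD of their log2 fold changes was 0.078, against 0.214 over all 47 proteasome genes and 0.284 over all tested genes. Both wider sets hold less abundant genes with larger SEs, such as PAAF1 and PSMB10, and were not matched on level. These SDs therefore cannot show whether the 32 genes change together. Of the 32, 28 had a log2 fold change above 0, 14 rose, and PSMD3 was the 1 that fell. Over all tested genes, 6402 of 13104 were above 0, 19.9% rose and 19.3% fell.

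The least abundant tested genes were PAAF1, PSMB10, PSMG4, PSMF1 and PSMD9, all factors other than constitutive subunits. PAAF1 averaged 5.03 ± 1.03 TPM in shPRSS22 and 9.56 ± 1.16 TPM in shCtrl. PSMB10 averaged 7.37 ± 0.984 TPM in shPRSS22 and 10.4 ± 1.53 TPM in shCtrl. The order of these last 2 is the same in both groups, but in shCtrl they lie within 1 SD of each other. The ratio of PSMB10 to PSMB7 in TPM was 0.0326, 0.0257 and 0.0243 in shPRSS22 libraries 1 to 3, against 0.0514, 0.0416 and 0.0366 in shCtrl libraries 1 to 3. The PSMB7 transcript was thus by far the more abundant in every library. Chaperones of the base also differed in level, with PSMD5 at 44.0 ± 1.92 TPM in shPRSS22 and 37.6 ± 1.76 TPM in shCtrl, several-fold above PAAF1. PSME2 and PSME1 were the most abundant activators, at 228 ± 11.6 and 197 ± 11.2 TPM in shPRSS22 and 249 ± 4.85 and 241 ± 1.68 TPM in shCtrl, and PSME4 was at 34.9 ± 1.962 TPM in shPRSS22 and 26.5 ± 1.04 TPM in shCtrl.

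**Figure D3:**
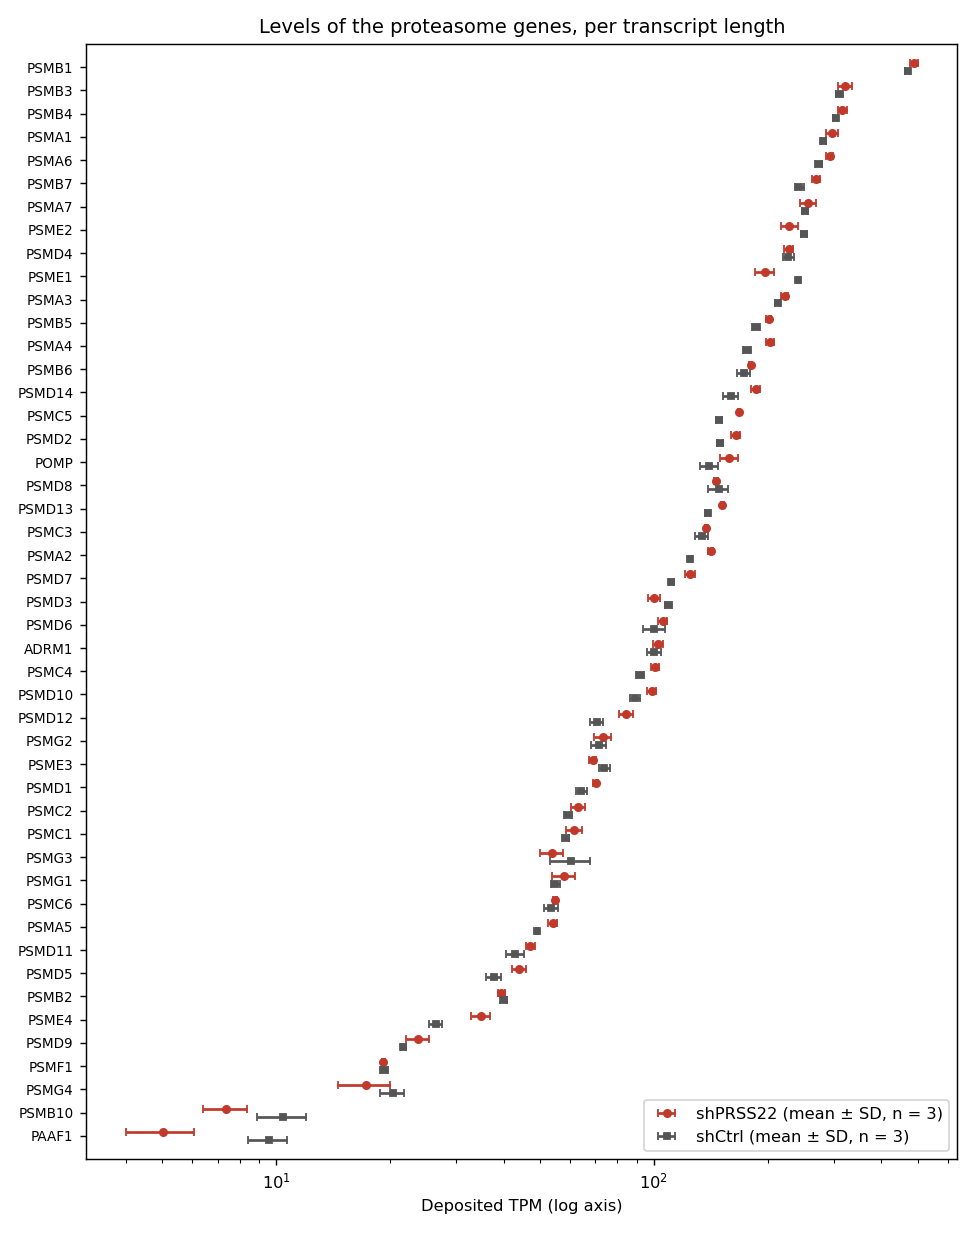
Deposited TPM, on a log axis, of the 47 tested proteasome genes ordered by their mean over all libraries, with shPRSS22 drawn above shCtrl for each gene (mean ± SD, n = 3). PSMB1 tops the order and PAAF1 ends it, and for most genes the shift between groups is small beside the spread between genes.

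Summed over all 49 genes, proteasome transcripts made up 6413, 6468 and 6511 TPM in shPRSS22 libraries 1 to 3, against 6170, 6114 and 6274 TPM in shCtrl libraries 1 to 3. Every shPRSS22 sum was above every shCtrl sum, and the means differed by 4.5%. The 20S core genes summed to 3241, 3314 and 3308 TPM in shPRSS22 libraries, against 3100, 3080 and 3127 TPM in shCtrl libraries, a difference of 5.97%. The 19S subunit genes summed to 2090, 2068 and 2132 TPM in shPRSS22 libraries, against 1956, 1925 and 2022 TPM in shCtrl libraries, a difference of 6.56%. Neither sum overlapped between groups, and the summed transcripts of both particles were higher by a similar percentage. Activators and inhibitor summed to 545, 556 and 544 TPM in shPRSS22 libraries, against 618, 604 and 609 TPM in shCtrl libraries. That is 10.2% lower, again without overlap, and most of the total comes from PSME1 and PSME2. For the nonATPase base subunits and the 20S assembly factors, sums differed by 4.66% and 3.73% but overlapped between groups. These sums are descriptions and were not tested.

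**Figure D4:**
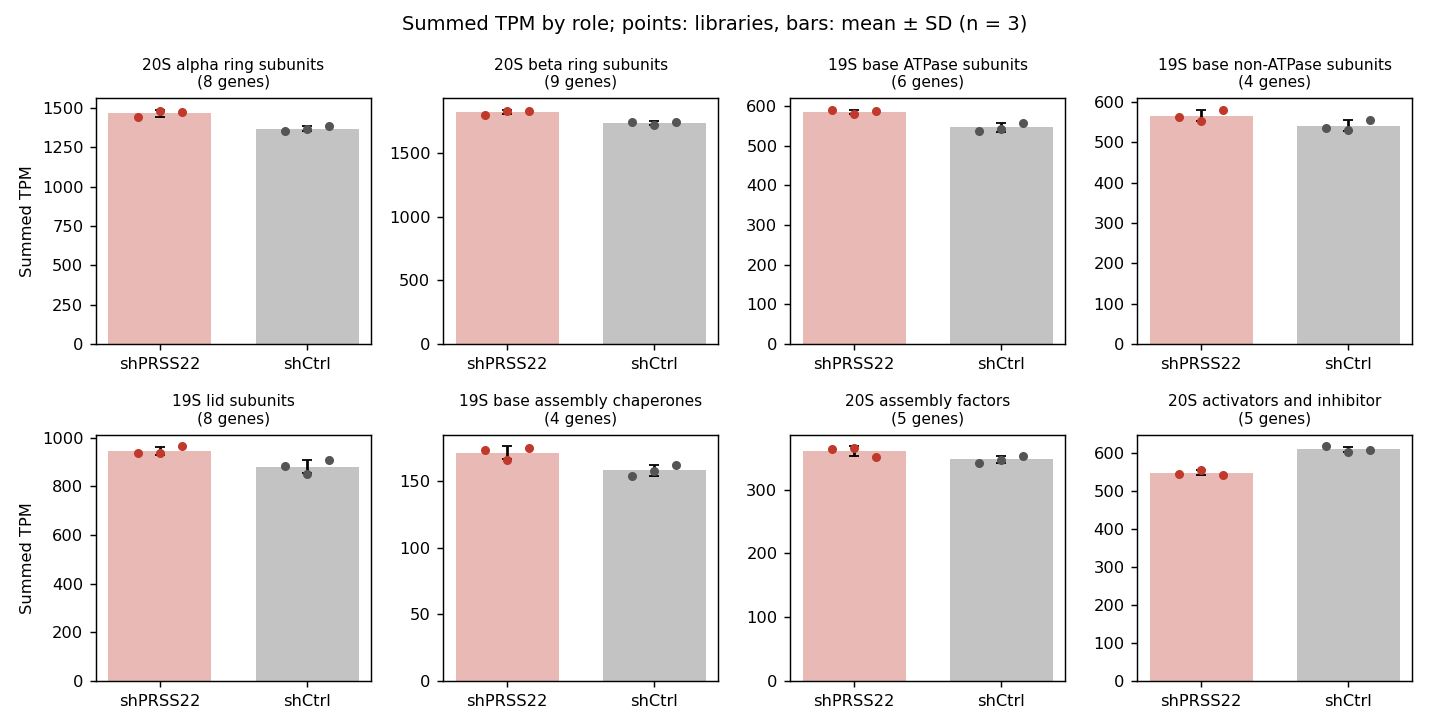
Summed TPM of the genes of each role by library, with shPRSS22 left of shCtrl; points are libraries and bars are mean ± SD. The shPRSS22 points lie above the shCtrl points for the rings, the ATPases, the lid and the base chaperones, below them for the activators and inhibitor, and overlap for the nonATPase base subunits and the 20S assembly factors.

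Libraries of a group were not equally high. Set against the average of all 6 libraries, the 14 constitutive 20S genes had a mean log2 level of -0.004, 0.092 and 0.037 in shPRSS22 libraries 1 to 3, against -0.051, -0.039 and -0.035 in shCtrl libraries 1 to 3. On the same scale the 18 genes of the 19S particle had 0.02, 0.057 and 0.049 in shPRSS22 libraries, against -0.054, -0.060 and -0.011 in shCtrl libraries. The shPRSS22 library 1 was thus the lowest of its group for the genes of both particles and still above each shCtrl library. Leaving out 1 library at a time gave 14 to 19 proteasome genes higher and 3 to 6 lower, beside 2161 to 2484 and 2079 to 2271 of all genes. The smallest count of each came without shCtrl replicate 1, with 14 higher and 3 lower. The smallest counts over all genes, 2161 higher and 2079 lower, came in the same fit, against 2603 and 2523 with all 6 libraries. Without shPRSS22 replicate 2, the library with the highest level of 20S genes, 15 were higher, beside 2484 of all genes.

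Reads can be shared or confused for some of these genes. Of the 49, 10 have pseudogenes by name in the annotation, among them PSMA6 with 4 and PSMA2 and PSMD10 with 3 each, and 16 overlap another gene of the table. Decimals were present in the counts of PSMC1, PSMC2 and PSMG4. Of the overlapping partners of genes that rose, SIRT3, opposite PSMD13, fell (log2 fold change -0.29, adjusted p = 0.00482). The part of overlapping reads in these values was not tested.

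The ubiquitin system around the proteasome was described with 37 genes in 5 groups, all tested. Of these, 10 rose, 4 fell and 23 did not pass, with a median log2 fold change of 0.04. The shares were 27.0% higher and 10.8% lower, against 19.9% and 19.3% of all tested genes. The counts by group below stand beside these same shares. Without shCtrl replicate 1, 8 rose and 2 fell, beside 2161 and 2079 of all genes, where the fit on all 6 libraries gave 2603 and 2523. The receptor SQSTM1, known as p62, which links ubiquitinated cargo to autophagy and binds KEAP1, changed most. It stood at 808, 820 and 899.8 CPM in shPRSS22 libraries 1 to 3, against 488, 516 and 517 CPM in shCtrl libraries 1 to 3. The groups were far apart, and the log2 fold change was 0.73 (SE 0.038; edgeR, adjusted p = 1.18e-15), or 66.1%. No proteasome gene rose by as much.

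Among the shuttle receptors, which carry ubiquitinated proteins to the proteasome, SQSTM1 was the 1 of 7 that rose, and UBQLN4 and BAG6 fell. UBQLN4 stood at 64.2, 65.5 and 62.9 CPM in shPRSS22 libraries 1 to 3, against 72.2, 78.2 and 79.4 CPM in shCtrl libraries 1 to 3. It was lower in every shPRSS22 library, by 0.25 on the log2 scale (SE 0.046; adjusted p = 4.35e-05). BAG6 had a log2 fold change of -0.11 (adjusted p = 0.0104), and it no longer passed without shCtrl replicate 1 (adjusted p = 0.0538) or on TPM values in limma (0.0519). The RAD23B, UBQLN1, UBQLN2 and DDI2 genes did not pass.

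Regulators of proteasome genes were the factors NFE2L1 and NFE2L2 and proteins that act on them or on proteasome import. KEAP1, the adaptor that targets NFE2L2 for ubiquitination, stood at 42.7, 41.3 and 44.0 CPM in shPRSS22 libraries 1 to 3, against 34.3, 31.1 and 31.4 CPM in shCtrl libraries 1 to 3. It rose without overlap between groups, by 0.40 on the log2 scale (SE 0.057; adjusted p = 1.08e-06). NFE2L2 averaged 252 ± 2.35 CPM in shPRSS22 and 225 ± 2.85 CPM in shCtrl and rose by 0.16 (adjusted p = 1.62e-04). NFE2L1, the factor that raises proteasome genes when the proteasome is inhibited, had a log2 fold change of 0.07 (adjusted p = 0.0987) and did not pass, although it did without shPRSS22 replicate 2 (0.10, adjusted p = 0.0229). NGLY1, the deglycosylase that NFE2L1 needs, stood at 23.7, 22.6 and 21.7 CPM in shPRSS22 libraries, against 23.8, 26.5 and 26.3 CPM in shCtrl libraries. Library 1 was almost equal in the groups, and the call (adjusted p = 0.0472) was lost without shPRSS22 replicate 2 (0.0934), shPRSS22 replicate 3 (0.152), shCtrl replicate 2 (0.172) or shCtrl replicate 3 (0.154), with DESeq2 (0.184), on TPM values in limma (0.113) and with no filter on low counts (0.0510). AKIRIN2, IPO9 and FBXO7 did not pass.

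Among the listed ubiquitin genes and activating enzymes, 1 of 4 rose. UBA6, an activating enzyme, stood at 166, 159 and 165 CPM in shPRSS22 libraries 1 to 3, against 147, 144 and 156 CPM in shCtrl libraries 1 to 3. The groups did not overlap, although shPRSS22 library 2 and shCtrl library 3 were close. Its log2 fold change was 0.13 (SE 0.037; adjusted p = 0.00464), a call lost on TPM values in limma (0.0951), while UBB, RPS27A and UBA1 did not pass.

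Of 11 enzymes and cofactors that bind the proteasome, 4 rose and 1 fell. ZFAND2A, an arsenite-inducible cofactor, stood at 14.5, 16.5 and 14.6 CPM in shPRSS22 libraries 1 to 3, against 12.6, 12.5 and 11.8 CPM in shCtrl libraries 1 to 3. It rose by 0.30 (adjusted p = 0.00686), and its adjusted p was 0.0545 without shPRSS22 replicate 2, its highest library. The ligase UBE3C rose by 0.17 (adjusted p = 5.68e-04). The phosphatase UBLCP1 rose by 0.11 (adjusted p = 0.0318), lost without shPRSS22 replicate 3 (0.143), shCtrl replicate 1 (0.172) or shCtrl replicate 2 (0.0814), with DESeq2 (0.103) and on TPM values in limma (0.0694). The thioredoxin-like TXNL1 rose by 0.10 (adjusted p = 0.0309), lost without shPRSS22 replicate 2 (0.0816), shCtrl replicate 1 (0.177) or shCtrl replicate 2 (0.0580) and with DESeq2 (0.0942). ECPAS, an adaptor that tethers the proteasome, stood at 104, 97.9 and 95.4 CPM in shPRSS22 libraries, against 111, 106 and 107 CPM in shCtrl libraries. The groups were close, and its fall of 0.13 (adjusted p = 0.0140) was lost without shPRSS22 replicate 3 (0.0680) or shCtrl replicate 1 (0.0916), with DESeq2 (0.0618) and on TPM values in limma (0.129). The deubiquitinases USP14 and UCHL5 did not pass.

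VCP, the unfoldase that extracts ubiquitinated proteins from complexes and membranes, did not pass (log2 fold change 0.006, adjusted p = 0.913), and 2 of its 7 listed cofactors rose. NPLOC4, which forms its ubiquitin-binding adaptor with UFD1, stood at 203, 204 and 210 CPM in shPRSS22 libraries 1 to 3, against 171, 164 and 167 CPM in shCtrl libraries 1 to 3. It rose by 0.30 (SE 0.034; edgeR, adjusted p = 2.01e-08), with all shPRSS22 values well above the shCtrl values. FAF2, a membrane-bound cofactor, rose by 0.17 (adjusted p = 6.35e-04), and UFD1 did not pass (log2 fold change 0.12, adjusted p = 0.0737).

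**Figure D5:**
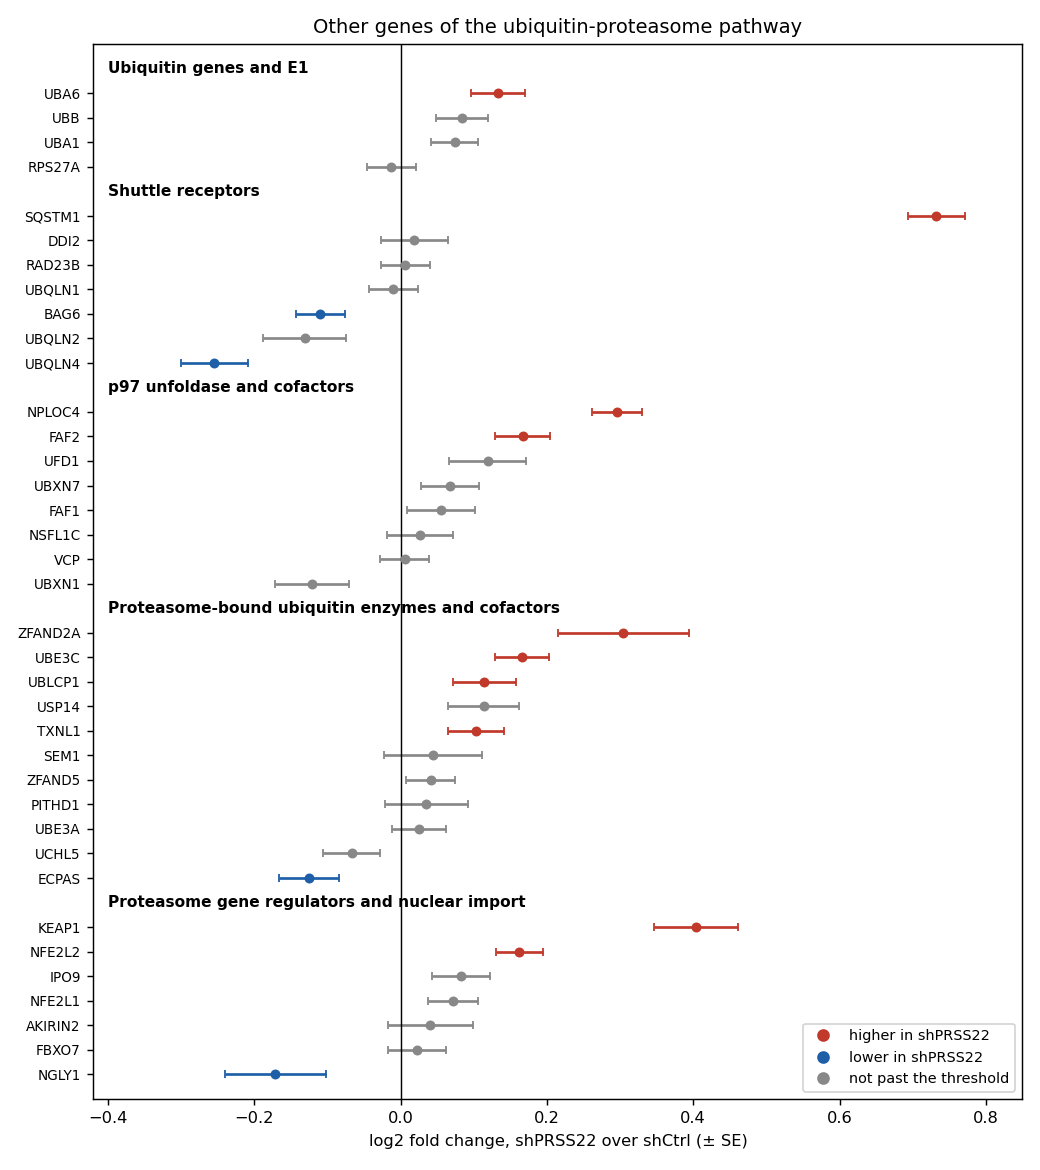
Log2 fold change of shPRSS22 over shCtrl, with its standard error, for 37 other genes of the ubiquitin system in 5 groups, coloured by whether the gene was higher, lower or not past the threshold. SQSTM1 at 0.73 stands far to the right of the others, KEAP1 at 0.40 is next, and UBQLN4 at -0.25 lies farthest to the left.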

How the data were processed

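The authors deposited 1 table with an estimated count, a TPM and other values per gene and library, per the file headers; the submitters' processing notes name HISAT2 2.2.1, Bowtie2 2.3.4.3, RSEM 1.3.1 and DESeq2 1.4.5 with GRCh38.p13, without their roles. Between 2081 and 2162 genes per library carried decimals in the deposited expected counts, which were rounded to whole numbers here. TPM deposited by the authors were used for levels between genes, sums and ratios. The deposited log2 fold changes, p-values and q-values of the authors were used only where named.

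Here edgeR 4.0.16 (R 4.3.3) was run with TMM scaling, filterByExpr and robust quasi-likelihood F tests on all 6 libraries, with Benjamini-Hochberg adjustment over 13104 genes. Tests were two-sided. SE is the size of the log2 fold change over the square root of F, and 95% intervals are 1.96 SE either way, unadjusted. These intervals are approximate and somewhat narrower than the F test implies. That of PSMD9, from 0.001 to 0.229, leaves out 0 at an unadjusted edgeR p of 0.0574. All tested members had at least 42 counts in every library. The common coefficient of variation between libraries was 2.97%. Chi-square statistics per gene were 2.15 to 3.05 between shPRSS22 libraries and 1.80 to 1.85 between shCtrl libraries, so the shPRSS22 libraries were the more scattered. No cutoff was set on this statistic, and each library was kept. Alternatives were DESeq2 1.42.0, limma 3.58.1 on log2(TPM + 1), other scalings and filters, a replicate block and leaving out each library. The fit was tested on simulated counts drawn with its own dispersions. That test set no pass mark for changes as small as most of those described here. Positions and overlaps are from GENCODE for GRCh38, and printed promoter stretches run 30 bases to each side of a match, or 10 bases where they reach into an annotated gene, within the window. Named with the value of every library were the 4 largest rises and 4 largest falls past the threshold and the highest and lowest gene of each of 8 roles, and in each of 5 pathway groups the largest rise and fall past the threshold; others are given more briefly. Members and lists were chosen with earlier results of these data known. A few listed pathway genes are not reported here. The deposited FPKM and the authors' normalised read counts, a scaled signal per the file headers, were not used here.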

Additional observations from a re-analysis of the deposited data

How the results depend on the processing

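Of the 24 calls among proteasome genes, 14 held under all 14 alternatives and none changed direction, with no such share worked out over all genes. The counts of 18 higher and 6 lower became 13 and 3 with DESeq2, and leaving out 1 library at a time gave 14 to 19 and 3 to 6, with 3 lower without shCtrl replicate 1. Among the 37 pathway genes, 4 were lower, against 2 with DESeq2, 1 with limma on TPM and 2 to 4 when 1 library was left out. Over all genes, edgeR on all 6 libraries called 2603 higher and 2523 lower, DESeq2 1886 and 1726, and limma on TPM 2233 and 1893. With 1 library left out, 2161 to 2484 of all genes were higher and 2079 to 2271 lower, both fewest without shCtrl replicate 1. The replicate numbers are not stated to pair libraries, and deviations of libraries with the same number had correlations of 0.019, 0.033 and 0.091, with libraries not always closest to their own number. With the replicate block, 19 proteasome genes were higher and 6 lower, PSMA6 and NFE2L1 passed as higher (adjusted p = 0.0309 and 0.0351), 15 pathway genes were higher and 6 lower, and 2782 of all genes were higher and 2747 lower. The RLE, upper-quartile and absent scalings shifted the median log2 fold change of all genes by -0.0066 to 0.002, and limma on TPM shifted it by 0.0109.

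The signs that turned belonged to genes that did not pass in either fit, with values near 0, and the cause was not tested. PSMD4 had log2 fold changes of 0.00171 with RLE scaling and with DESeq2, 0.000564 with no filter on low counts, 0.00061 at a mean of at least 1 CPM and 0.00713 with limma on TPM, and VCP had -0.000791 with upper-quartile scaling. Leaving out 1 library at a time gave log2 fold changes of -0.019 to 0.0225 for PSMD4, -0.0144 to 0.0454 for ADRM1, -0.0013 to 0.0702 for PSMA7, -0.0611 to 0.0202 for PSMD8, -0.0319 to 2.59e-05 for PSMF1, -0.0142 to 0.0777 for PSMG1, -0.017 to 0.0793 for PSMG2 and -0.015 to 0.0223 for VCP. At this depth the approximate 95% intervals of the proteasome genes that did not pass extended 0.066 to 0.203 either side on the log2 scale, unadjusted for multiple tests.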
